A study of Mus musculus with 37 samples.

Results

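The expression of 6 genes of arginine metabolism and nitric oxide synthesis, Nos2, Slc7a2, Gch1, Ass1, Asl and Odc1, was followed among the 24016 genes measured by polyA RNA-seq of mouse bone marrow-derived macrophages (BMDMs). They were chosen by symbol for their place in the pathway. BMDMs came from male WT C57BL/6J mice or from male Arntl-/- mice (labelled BmalKO), all aged 6 to 9 weeks. Arntl encodes the clock protein Bmal1, and the Arntl-/- mice carry the deletion in every tissue, not in macrophages alone. All cells grew in medium with M-CSF, the macrophage growth factor, for 6 days and were then treated with Kdo2 lipid A (KLA), the TLR4-binding substructure of bacterial lipopolysaccharide, for 0, 6, 24 or 48 h. Each of the 8 combinations of genotype and time had 1 library, so no comparison below has a replicate check and no p-value is given. The sources describe the WT mice both as littermates and as purchased C57BL/6J animals, and they do not say how many mice gave each library.

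Several enzymes of a macrophage draw on its arginine. The inducible nitric oxide synthase Nos2 turns it into nitric oxide and citrulline, and arginine also yields ornithine, the starting point for polyamines. Slc7a2 is a cationic amino acid transporter that brings arginine in, Gch1 makes the first intermediate of the Nos2 cofactor tetrahydrobiopterin, Ass1 and Asl rebuild arginine from citrulline, and Odc1 takes ornithine to putrescine. Nos2 is a classic gene of the macrophage response to bacterial products.

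The values are FPKM per 10000000 tags, divided by a size factor per library (0.918 to 1.13), and are called levels here. FPKM corrects for exon length, but not for the limit of 3 tags counted per position or for shifts that depend on expression level. The top 10% of genes by expression deviated by a median log2 of -0.34 in WT 6 h and 0.29 in WT 48 h. Comparisons of levels between genes and between libraries are therefore approximate. A difference is given as log2 on the scale log2(level + 0.1), and a gene was counted as called where it differed by at least 1.5-fold. The interval after each difference is a 95% counting interval, widened because a fragment could be counted up to 6 times, and it covers the counting of reads only, not cultures or mice. Of the 24016 genes, 11049 passed a minimum mean of 20 scaled reads over the 8 libraries, and all 6 genes were among them. The libraries held 8587560 to 27036783 reads on genes, with WT 6 h the deepest.

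The labels were checked against the deleted gene and against cell markers. Arntl had a level of 34.3, 32.3, 35.6 and 38.7 in WT BMDMs at 0, 6, 24 and 48 h and of 13.9, 11.3, 18.8 and 20.2 in Arntl-/- BMDMs. It was lower in Arntl-/- BMDMs at each time but not absent, with 75 to 136 reads, and the counting intervals overlapped at 24 h (23.8 to 51.2 in WT, 11.9 to 28.3 in Arntl-/-) and at 48 h (25.0 to 57.2 and 10.6 to 35.0). All 9 macrophage markers were detected, with a summed level of 16036 to 39202 in WT and 18017 to 35171 in Arntl-/- BMDMs. The 5 dendritic, 6 lymphocyte and 5 mast cell and erythroid markers summed to no more than 11.3, 14.3 and 2.16 in any library. The 8 stromal markers summed to 554 to 1448 in WT and 401 to 815 in Arntl-/- BMDMs, and the 7 neutrophil markers measured to 528 to 928 and 860 to 1033, with Mpo at 0 in every library.

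Promoter sequence was at hand for 3 of the 6 genes, Ass1, Gch1 and Odc1, in the RefSeq table for build GRCm38.p6. The 250 bases before the start were searched on both strands for the E-box CACGTG, to which Bmal1 binds with Clock, the NF-kB consensus, the interferon-stimulated response element (ISRE), the AP-1 motif TGANTCA and the retinoid-related orphan receptor element (RORE), to which the Rev-erb proteins bind. Ass1 held 1 E-box, whose first base lay 36 bases before the start, and no other motif of the 5. Gch1 held 1 NF-kB consensus, 10 bases before the start, and Odc1 held none of the 5. Of the 32851 promoters in the table, 6.02% held the E-box, 3.90% the NF-kB consensus, 2.98% the ISRE, 6.75% the AP-1 motif and 0.493% the RORE. The promoters with a match are shown because the deleted gene and the KLA signal act through these kinds of motif; capitals mark the match, and a match is not evidence of binding. The Ass1 window is chr2:31470020-31470269 on the plus strand and the Gch1 window chr14:47189414-47189663 on the minus strand.
Ass1: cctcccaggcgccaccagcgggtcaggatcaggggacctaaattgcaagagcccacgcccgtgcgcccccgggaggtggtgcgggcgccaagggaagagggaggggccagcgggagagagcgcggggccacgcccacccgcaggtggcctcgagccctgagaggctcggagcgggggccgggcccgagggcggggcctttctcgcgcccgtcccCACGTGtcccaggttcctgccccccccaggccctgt
Gch1: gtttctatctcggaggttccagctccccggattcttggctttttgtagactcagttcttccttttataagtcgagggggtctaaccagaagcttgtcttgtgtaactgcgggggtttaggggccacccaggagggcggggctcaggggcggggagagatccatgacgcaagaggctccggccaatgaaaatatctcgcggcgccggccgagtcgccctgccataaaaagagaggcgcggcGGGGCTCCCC

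Nos2, the inducible nitric oxide synthase, was higher after KLA in both genotypes, and its level was higher in Arntl-/- than in WT BMDMs at every time. Nos2 (NM_010927, mm9 chromosome 11, 78734361 to 78773626, plus strand) had a level of 11.9, 105, 115 and 273 in WT BMDMs at 0, 6, 24 and 48 h. In Arntl-/- BMDMs the level was 31.5, 135, 274 and 523. In WT cells it was nearly flat from 6 to 24 h (log2 0.14, interval -0.17 to 0.44), whereas in Arntl-/- cells it went on upwards (log2 1.02, 0.79 to 1.26). As a result, the Arntl-/- library at 24 h had the level of the WT library at 48 h.

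**Figure D1:**
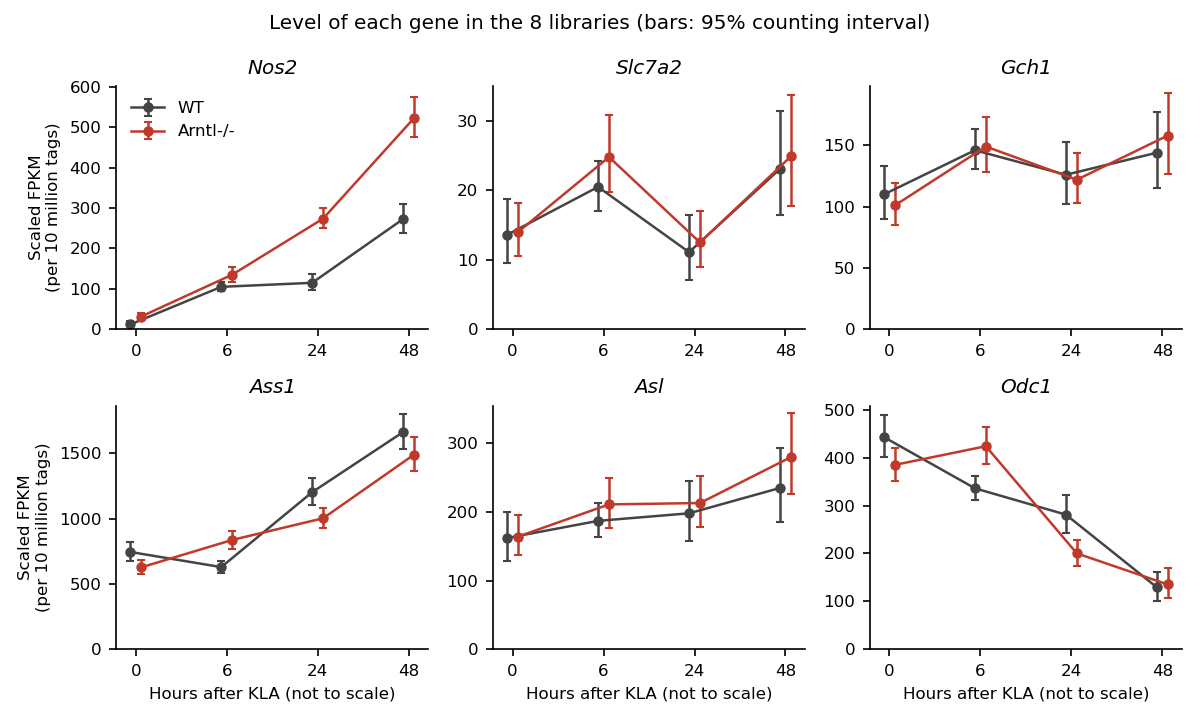
Level (scaled FPKM per 10000000 tags, linear axes from 0) of the 6 genes at 0, 6, 24 and 48 h after KLA in WT (grey) and Arntl-/- (red) BMDMs, 1 library a point, bars showing the widened 95% counting interval. Nos2 reached 273 in WT and 523 in Arntl-/- BMDMs, Ass1 ended at 1663 and 1490, and Odc1 ended at 129 and 135.

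The Nos2 difference between the genotypes was 2.63-fold at 0 h (log2 1.40, 0.61 to 2.28), before any KLA, though the WT value rested on 100 reads. At 6 h the 1.29-fold difference (log2 0.37, 0.12 to 0.61) was not called. The gap opened again to 2.37-fold by 24 h (log2 1.25, 0.96 to 1.54) and was 1.92-fold at the last time (log2 0.94, 0.71 to 1.17). Ranked by this difference among the 11049 genes, Nos2 took places 39, 1011, 80 and 331 from the top at the 4 times. The change from 0 h was 8.74-fold, 9.62-fold and 22.7-fold in WT at 6, 24 and 48 h and 4.28-fold, 8.68-fold and 16.5-fold in Arntl-/- BMDMs. The intervals of the 2 genotypes overlapped at each time, for instance log2 2.43 to 3.94 in WT and 1.70 to 2.52 in Arntl-/- BMDMs at 6 h.

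Slc7a2, the arginine transporter (NM_001044740, mm9 chromosome 8, 41947721 to 42007424, plus strand), was the lowest of the 6 in every library except WT 0 h, where Nos2 was lower, and moved up, down and up again. Its level was 13.6, 20.5, 11.1 and 23.1 in WT and 14.0, 24.8, 12.5 and 24.9 in Arntl-/- BMDMs. The genotypes traced the same course, with differences of log2 0.04 to 0.28, all of whose intervals held 0. From 6 to 24 h Slc7a2 was 0.544-fold in WT and 0.506-fold in Arntl-/- BMDMs, and from 24 to 48 h 2.07-fold and 1.98-fold. The 24 h dip was therefore present in both time courses.

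Gch1, the entry to tetrahydrobiopterin synthesis (NM_008102, mm9 chromosome 14, 47773570 to 47809077, minus strand), varied least. Its level was 110, 146, 126 and 144 in WT and 101, 149, 122 and 158 in Arntl-/- BMDMs. The highest was 1.33 times the lowest in WT and 1.56 times in Arntl-/- BMDMs, and the change from 0 to 48 h in Arntl-/- cells (log2 0.64, 0.25 to 1.03) was the only call for this gene. The difference between genotypes stayed between log2 -0.12 and 0.13. The cofactor enzyme thus showed no genotype difference that this depth could detect, at the times when Nos2 itself differed.

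Ass1, argininosuccinate synthase (NM_007494, mm9 chromosome 2, 31325790 to 31376190, plus strand), was the most abundant of the 6. Its level was 744, 628, 1202 and 1663 in WT and 626, 836, 1002 and 1490 in Arntl-/- BMDMs. It climbed late in both genotypes, 2.23-fold by 48 h in WT and 2.38-fold in Arntl-/- BMDMs. At 6 h the genotypes parted, since Ass1 was below its 0 h level in WT (log2 -0.24, -0.42 to -0.07) and above it in Arntl-/- BMDMs (log2 0.42, 0.24 to 0.59). WT 6 h is the deepest library, and with a correction for expression level the 2 changes were 0.13 and 0.22. Between genotypes Ass1, whose promoter holds the E-box shown above, was never called, with log2 -0.25, 0.41, -0.26 and -0.16 at the 4 times. It was higher in Arntl-/- BMDMs only at 6 h, where the same correction left log2 0.05.

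Asl, argininosuccinate lyase (NM_133768, mm9 chromosome 5, 130487373 to 130500201, minus strand), completes the return of citrulline to arginine. Its level was 162, 187, 198 and 235 in WT and 164, 211, 213 and 280 in Arntl-/- BMDMs, a slow climb in both. At 48 h it was 1.45-fold its 0 h level in WT and 1.71-fold in Arntl-/- BMDMs, and only the latter was called. The ratio of Ass1 to Asl in the same library was 4.60, 3.35, 6.08 and 7.07 in WT and 3.83, 3.97, 4.71 and 5.31 in Arntl-/- BMDMs. Ass1 therefore outweighed Asl in every library.

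Odc1, ornithine decarboxylase, the enzyme that commits ornithine to polyamines (NM_013614, mm9 chromosome 12, 17551679 to 17558308, plus strand), went the other way. Its level was 443, 336, 281 and 129 in WT and 385, 424, 200 and 135 in Arntl-/- BMDMs. The decline began by 6 h in WT (log2 -0.40, -0.58 to -0.22), while at 6 h in Arntl-/- BMDMs Odc1 stood at log2 0.14 (-0.05 to 0.33) from its start. By 24 h the Arntl-/- level was the lower (log2 -0.49, -0.78 to -0.20), and by 48 h both genotypes had come to nearly the same level, 0.291-fold of the start in WT and 0.351-fold in Arntl-/- BMDMs. Odc1 was not called between genotypes at any time.

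Counted together, 1 of the 6 genes, Nos2, was called between genotypes at 0, 24 and 48 h, and 0 were called at 6 h. Of all 11049 genes, 6.40%, 5.58%, 8.33% and 13.6% were called at 0, 6, 24 and 48 h. All the calls among the 6 were towards a higher level in Arntl-/- BMDMs, a direction that 4.03%, 2.36%, 4.79% and 7.32% of all genes took at that size. The median difference of the 6 was log2 -0.05, 0.31, 0.03 and 0.12 at the 4 times, against -0.01, 0.01, 0.00 and -0.02 over all genes. The value at 6 h, which rests on the WT 6 h library, was 0.20 with the correction for expression level and 0.17 with the values as deposited, where the median of all genes was -0.13. Nos2, Slc7a2 and Asl, 3 of the 6, were above 0 at all 4 times, which 7.98% of all genes were, but for Slc7a2 and Asl every interval held 0, and the smallest difference turned below 0 for Asl with upper-quartile scaling (-0.01) and for Slc7a2 with the correction for expression level (-0.04). The 4 times are separate libraries, and the values of the 6 genes come from the same 8 libraries and are not independent.

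**Figure D2:**
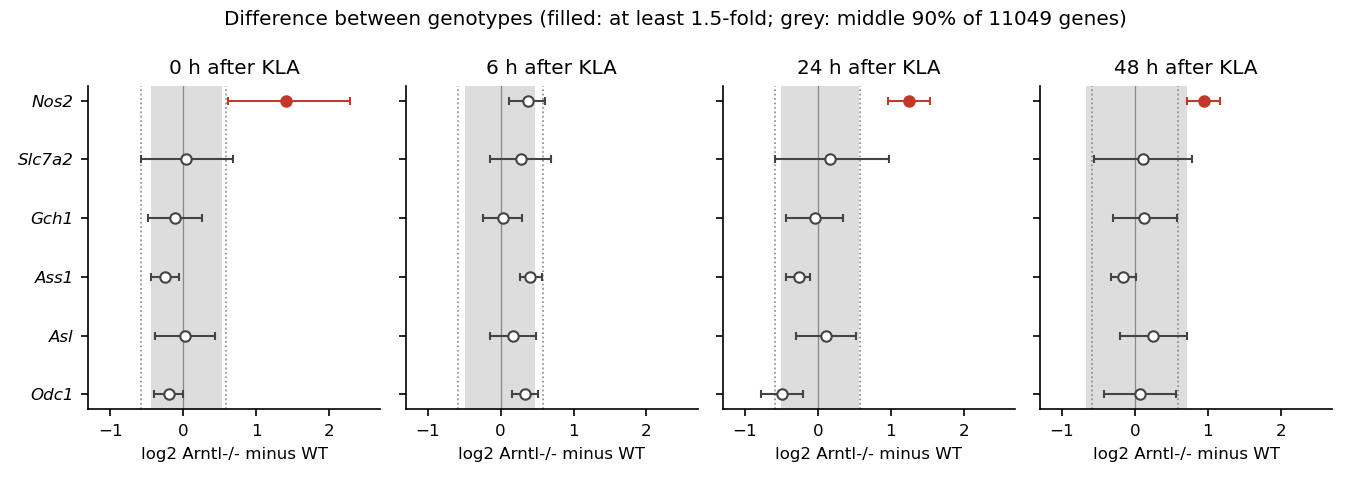
Log2 difference in level, Arntl-/- minus WT, for the 6 genes at 0, 6, 24 and 48 h, with the widened 95% counting interval as bars, the 1.5-fold lines dotted and the middle 90% of the 11049 genes in grey. Filled red points are called: Nos2 at 0, 24 and 48 h (log2 1.40, 1.25 and 0.94).

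Markers of other cells also differed between the genotypes. The summed neutrophil markers were 528, 545, 622 and 928 in WT and 942, 1033, 860 and 943 in Arntl-/- BMDMs at 0, 6, 24 and 48 h, and the summed stromal markers 554, 656, 759 and 1448 against 401, 432, 463 and 815. The stromal gene Dcn went against its list at 0 h (16.8 in WT and 39.1 in Arntl-/-), 24 h (29.3 and 37.0) and 48 h (62.3 and 91.3), but not at 6 h (42.0 and 34.6). The part of these other cells in the difference of Nos2 was not tested. In bulk RNA a change in the share of cells and a change in RNA per cell cannot be told apart. At 0 h, where Nos2 was 2.63-fold higher in Arntl-/- BMDMs, some neutrophil genes were called higher too. They were S100a9 (164 in WT and 403 in Arntl-/-), Ltf (18.9 and 42.4) and Ngp (37.2 and 83.4), while S100a8 (308 and 401) was not called. At 6 h, where Nos2 was not called, all 4 neutrophil markers over the minimum were called higher in Arntl-/- BMDMs. Their differences were log2 0.87 for S100a8, 1.04 for S100a9, 1.25 for Ltf and 0.73 for Ngp. At 24 h S100a9 (148 and 371) and Ngp (17.1 and 38.4) were called higher, but S100a8 (429 and 411) and Ltf (17.5 and 25.4) were not called. At 48 h nearly all of the neutrophil sum came from S100a8, at 910 in WT and 905 in Arntl-/- BMDMs, and S100a9 was at 10.1 and 9.00. Of the granule genes at that time, Ltf was at 0 in both libraries, Camp was at 7.58 in WT and 26.3 in Arntl-/- BMDMs (6 and 20 reads) and Ngp had 0 and 4 reads.

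After KLA, 2, 3 and 4 of the 6 genes were called in WT BMDMs at 6, 24 and 48 h, where 9.96%, 18.8% and 29.5% of all genes were. In Arntl-/- BMDMs 2, 3 and 6 of the 6 were called, beside 7.71%, 18.3% and 33.6% of all genes. Nos2 and Slc7a2 were called at 6 h in both, and Nos2, Ass1 and, downwards, Odc1 at 24 h in both. At 48 h the calls in WT were Nos2, Slc7a2, Ass1 and Odc1, and in Arntl-/- BMDMs Gch1 and Asl were called too. Odc1 was the only gene of the 6 called downwards from 0 h. The 3 changes in a genotype share their 0 h library, so they are not independent. The WT call of Slc7a2 at 6 h (log2 0.59) sat on the threshold and was lost with upper-quartile scaling, a correction for expression level or a pseudocount of 1. In Arntl-/- BMDMs the call of Ass1 at 24 h (log2 0.68) was lost with the correction for expression level (0.53) and that of Gch1 at 48 h (0.64) with the values as deposited (0.47).

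**Figure D3:**
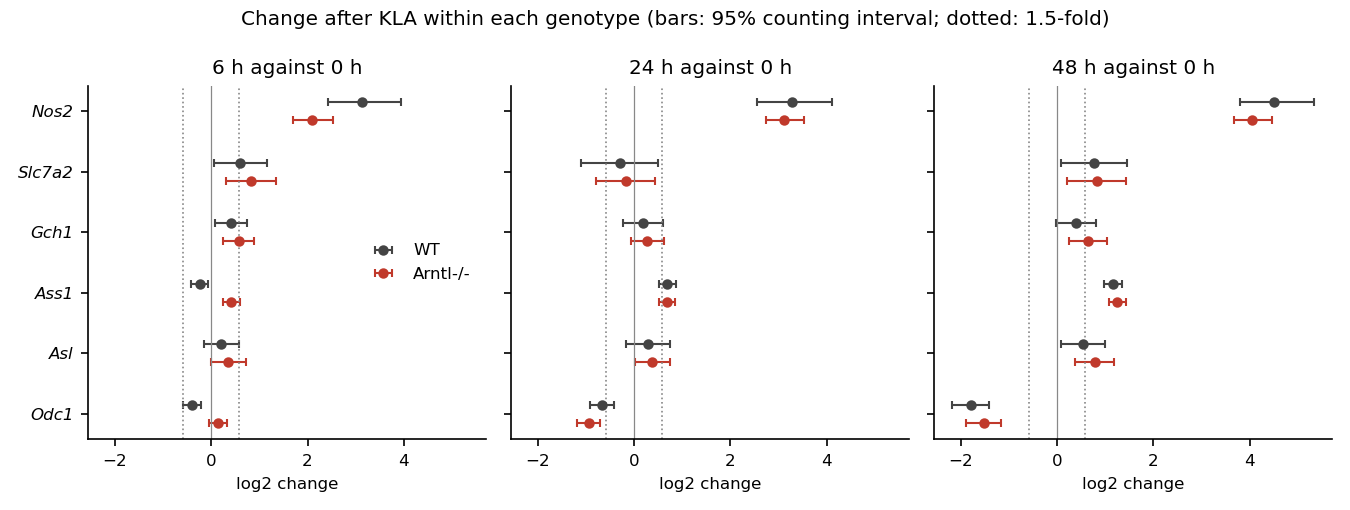
Log2 change in level from 0 h to 6, 24 and 48 h after KLA in WT (grey) and Arntl-/- (red) BMDMs for the 6 genes, with the widened 95% counting interval as bars and the 1.5-fold lines dotted. At each time Nos2 has the highest change in both genotypes (4.51 in WT and 4.05 in Arntl-/- at 48 h). At 48 h Odc1 is lowest (-1.78 and -1.51).

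Ratios of genes within a library need no size factor, but a shift that depends on expression level, as in WT 6 h, still enters them. The ratio of Nos2 to Gch1, the synthase and the first enzyme of its cofactor, was 0.108, 0.718, 0.919 and 1.90 in WT BMDMs and 0.313, 0.906, 2.25 and 3.32 in Arntl-/- BMDMs at 0, 6, 24 and 48 h. Nos2 was below Gch1 at 0 h in both genotypes and above it at 48 h in both. At 48 h the interval was 1.48 to 2.45 in WT and 2.65 to 4.20 in Arntl-/- BMDMs, and the intervals of the genotypes overlapped only at 6 h.

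The ratio of Nos2 to the transporter Slc7a2 was 0.876, 5.13, 10.4 and 11.8 in WT and 2.25, 5.46, 22.0 and 21.1 in Arntl-/- BMDMs. Its intervals overlapped between the genotypes at all 4 times, for instance 6.69 to 16.9 and 15.9 to 31.1 at 24 h. The ratio of Nos2 to Ass1 was 0.0160, 0.167, 0.0960 and 0.164 in WT and 0.0503, 0.162, 0.274 and 0.351 in Arntl-/- BMDMs. At 0, 24 and 48 h the intervals did not overlap. At 6 h the difference of the ratio, Arntl-/- minus WT, was log2 -0.04, and with the correction for expression level it was 0.36.

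**Figure D4:**
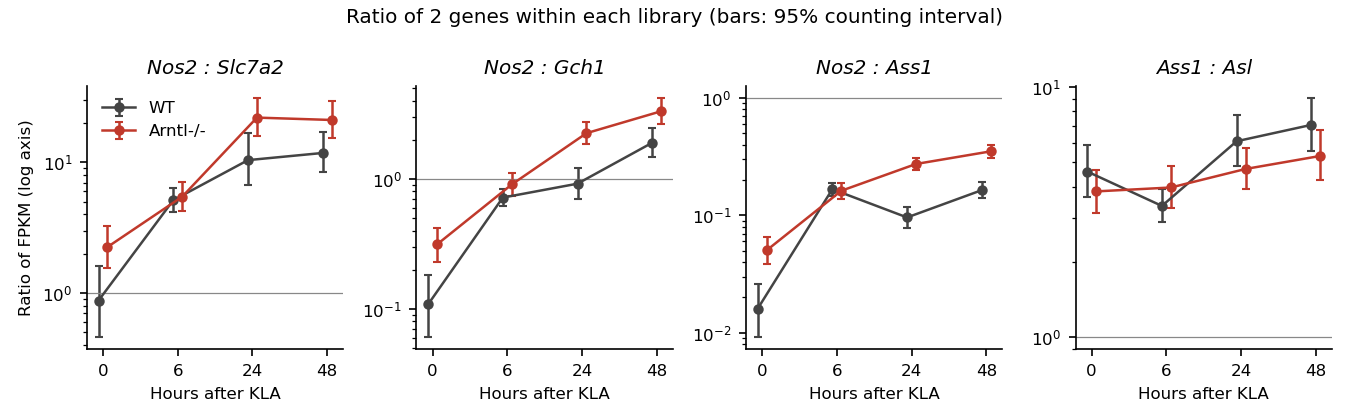
Ratio of the FPKM of 2 genes in the same library on log axes, at 0, 6, 24 and 48 h after KLA in WT (grey) and Arntl-/- (red) BMDMs, with widened 95% counting intervals and a grey line at 1. Nos2 to Gch1 went from 0.108 and 0.313 at 0 h to 1.90 and 3.32 at 48 h, Nos2 to Ass1 ended at 0.164 in WT and 0.351 in Arntl-/- BMDMs, and Ass1 to Asl stayed above 1 in every library.

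The order of the 8 libraries differed by gene. For Nos2 the lowest was WT 0 h and the highest Arntl-/- 48 h, and 4 of the 7 steps between neighbours in the order exceeded the counting interval. For Ass1 and Odc1 it was also 4 of 7, for Slc7a2 1 of 7, and for Gch1 and Asl 0 of 7. For Slc7a2 that step separated the 0 and 24 h libraries of both genotypes from the 6 and 48 h libraries.

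Across the 8 libraries, which differ in depth and share their scaling, levels on the log2 scale gave a Pearson's r between Nos2 and Asl of 0.93, between Ass1 and Odc1 of -0.87 and between Nos2 and Odc1 of -0.81. The other genes most like Nos2 were Trex1 (r = 0.996), Rtp4 (0.990) and Trafd1 (0.989). Trex1, a DNA exonuclease, had a level of 128, 215, 210 and 269 in WT and 151, 217, 259 and 304 in Arntl-/- BMDMs. The course of Nos2, with its pause from 6 to 24 h in WT, was visible there at a smaller scale.

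For Ass1 the closest were Rabac1 (0.994), Sdf4 (0.993) and Serp1 (0.993), and for Asl H2-Ab1 (0.992), a class II antigen presentation gene, Plcb4 (0.985) and H2-T22 (0.980). For Slc7a2 they were Setd6 (0.978), Gja1 (0.949) and Gstk1 (0.949), for Gch1 Tap1 (0.943), the peptide transporter of class I presentation, Iba57 (0.939) and Stoml1 (0.930), and for Odc1 Ddx39 (0.991), Cdk4 (0.988), a cell cycle kinase, and Pmf1 (0.987). These are the 3 highest of 11049 genes for each, and genes were picked by this measure alone.

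The other genes of the pathway were taken from 5 lists with 55 genes in all, of which 40 passed the minimum of reads. Between genotypes 0, 0, 4 and 3 of the 40 were called at the 4 times in order, the last 2 being 10.0% and 7.50% of the list, near or below the 8.33% and 13.6% of all genes. The genes called, named here after their values were seen, were at 24 h the ornithine carrier Slc25a15, lower in Arntl-/- BMDMs (log2 -0.71), and Prodh (0.87), Paox (0.62) and Pts (0.71), higher, though the call of Paox was lost with the correction for expression level (0.57). At 48 h they were the creatine synthesis genes Gatm (-1.23) and Gamt (-0.77) and the tetrahydrobiopterin gene Spr (-0.67), all lower. No gene of the 40 was called at more than 1 time.

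**Figure D5:**
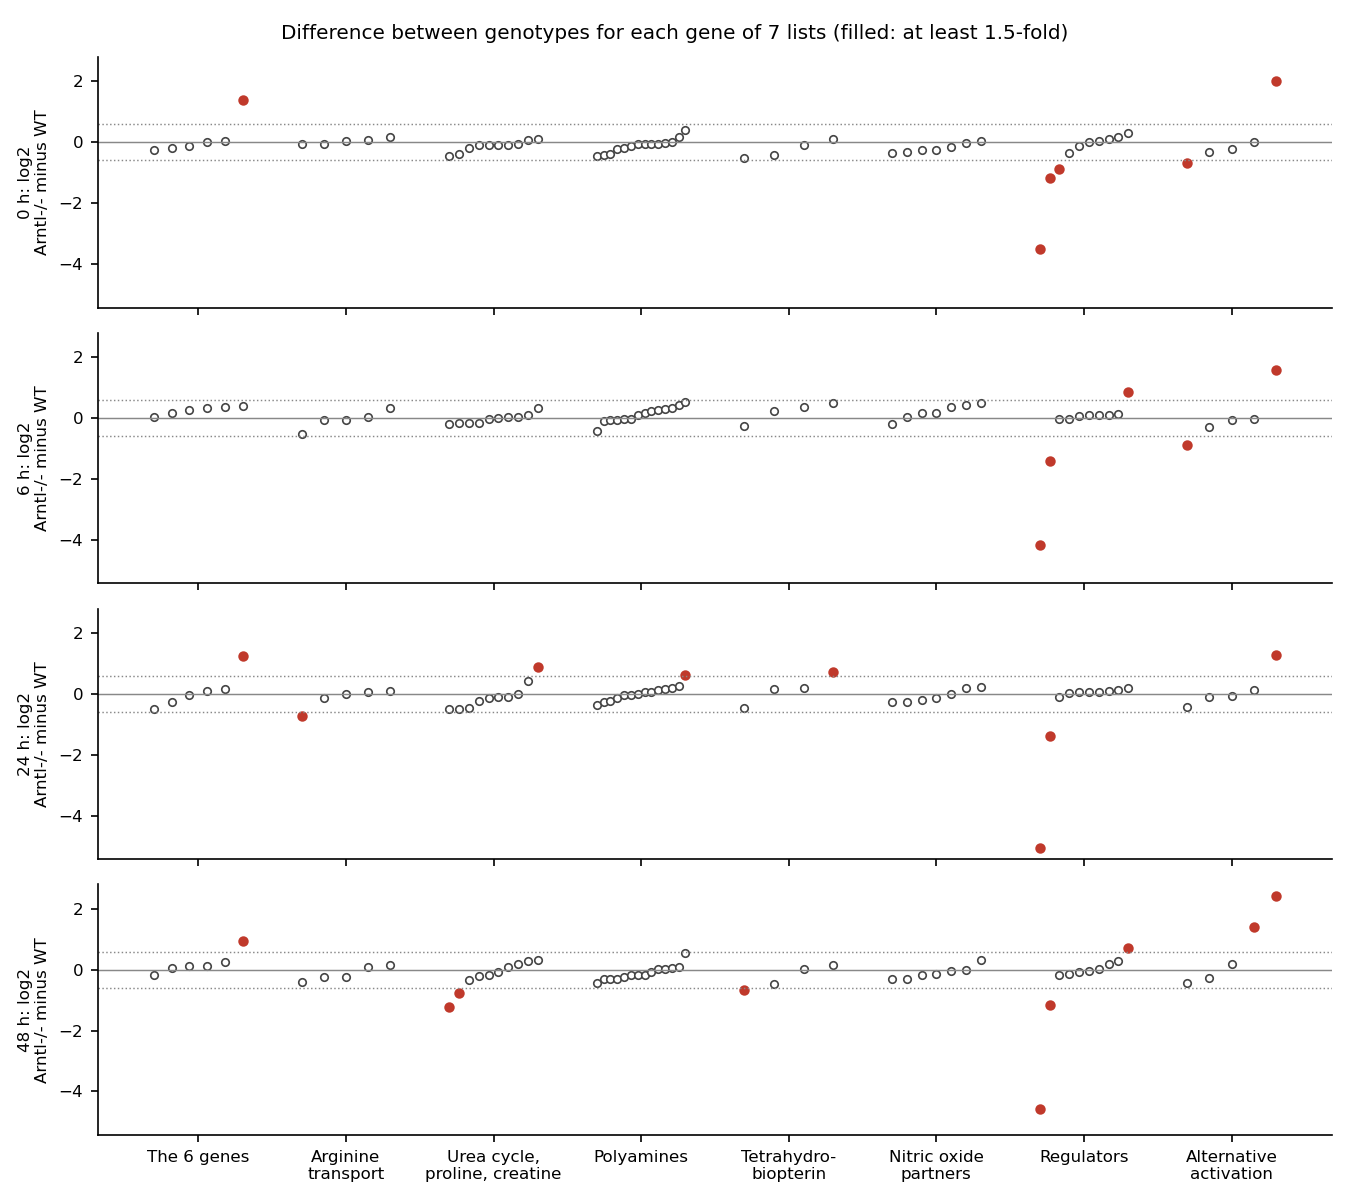
Log2 difference in level, Arntl-/- minus WT, at 0, 6, 24 and 48 h (panels from top to bottom) for the 6 genes and for each gene of 7 lists that passed the minimum of reads, a point a gene and filled red where called. Few points of the 5 pathway lists pass the dotted 1.5-fold lines. The lowest point in each panel is Nr1d2 among the regulators (-3.50 to -5.06) and the highest is Chil3 in the alternative activation list (1.27 to 2.43).

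By list, arginine transport had 5 genes over the minimum, and the one with the largest change in WT was Slc7a1, the constitutive arginine transporter. Its level was 67.2, 54.3, 29.8 and 20.3 in WT and 69.0, 54.9, 31.9 and 17.2 in Arntl-/- BMDMs, a steady decline that the genotypes shared. It was above Slc7a2 in every library except those at 48 h. Of the 10 urea cycle, proline and creatine genes over the minimum, Gatm had the largest change in WT, with 91.7, 69.7, 53.4 and 28.1 in WT and 80.0, 62.9, 38.0 and 11.9 in Arntl-/- BMDMs. The first enzymes of the hepatic urea cycle, Nags and Cps1, had no read in any library, and Otc had 6 reads in WT 0 h alone.

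Of the 14 polyamine genes over the minimum, Srm, spermidine synthase, changed most in WT. Its level was 175, 142, 61.6 and 29.6 in WT and 134, 166, 69.6 and 43.7 in Arntl-/- BMDMs. Srm declined to 48 h as Odc1 did. At 6 h it stood at log2 -0.31 from its 0 h level in WT and at 0.32 in Arntl-/- BMDMs, neither of them called. Amd1 and Amd2 had nearly the same level in every library, 247 and 248 in WT 0 h with 1674 and 1676 reads, so reads could not be assigned to either with certainty. They are counted as 2 of the 14 genes although their reads may be shared, which was not checked. In WT BMDMs 3 of the 14 were called higher and 2 lower at 48 h, and in Arntl-/- BMDMs 4 and 3, against 29.5% and 33.6% of all genes in either direction.

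Of the 4 other tetrahydrobiopterin genes over the minimum, Pcbd2, a pterin dehydratase, changed most in WT, with 310, 216, 223 and 289 in WT and 230, 303, 252 and 322 in Arntl-/- BMDMs. Its largest WT change (log2 -0.52 at 6 h) was not called, and none of the 4 was called after KLA at any time in either genotype. Among the nitric oxide partners, 7 of 12 were over the minimum, and Ddah2, an enzyme that clears methylated arginines, changed most, with 46.1, 45.3, 28.5 and 73.2 in WT and 38.9, 46.7, 33.3 and 66.2 in Arntl-/- BMDMs. The other nitric oxide synthases were at or near 0, with Nos1 at 0 to 0.366 and Nos3 at 0 to 0.750. Nos2 was thus the nitric oxide synthase that these BMDMs expressed at a level that could be followed.

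Of the 11 known regulators of these genes, 10 were over the minimum. Nr1d1 and Nr1d2, the Rev-erb repressors and direct targets of Bmal1, were called lower in Arntl-/- BMDMs at all 4 times. Nr1d1 had a level of 44.5, 33.9, 26.2 and 37.0 in WT and 19.6, 12.6, 10.00 and 16.7 in Arntl-/- BMDMs. Nr1d2 had 70.6, 60.2, 95.4 and 90.2 in WT and 6.15, 3.23, 2.76 and 3.70 in Arntl-/- BMDMs. For both the genotypes did not overlap.

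Hif1a, the oxygen-regulated transcription factor, changed most after KLA among the regulators in WT, with 254, 275, 481 and 461 in WT and 274, 293, 516 and 563 in Arntl-/- BMDMs, and it was not called between genotypes. Cebpb, a transcription factor of the inflammatory response named here after its values were seen, had a level of 740, 485, 1141 and 992 in WT and 402, 886, 1164 and 1608 in Arntl-/- BMDMs. It was lower in Arntl-/- BMDMs at 0 h (log2 -0.88) and higher at 6 h (0.87) and 48 h (0.70). With the correction for expression level these were -0.70, 0.53 and 0.74, so the 6 h call was lost. Rela, Nfkb1, Irf1, Irf8, Stat3 and Stat6 also were not called between genotypes at any time.

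Of 14 genes of alternative activation, the state that type 2 cytokines bring about, 5 were over the minimum. Chil3, which encodes the chitinase-like protein Ym1, was called higher in Arntl-/- BMDMs at all 4 times, with 23.2, 27.1, 36.0 and 2.95 in WT and 92.7, 81.2, 86.9 and 16.3 in Arntl-/- BMDMs. It was lowest at 48 h in both genotypes, when Nos2 was at its highest, and the 48 h values rested on 6 and 32 reads. The neutrophil marker S100a9 was lowest at 48 h in both genotypes too, at 10.1 in WT and 9.00 in Arntl-/- BMDMs (7 and 6 reads). The neutrophil markers S100a9 and Ngp also were higher in Arntl-/- BMDMs at 0, 6 and 24 h (S100a9 164, 207 and 148 in WT, 403, 428 and 371 in Arntl-/-), and neutrophil precursors express Chil3 too. Their part in the Chil3 difference was not tested. Retnla and Ccl17, other genes of alternative activation, had no read in any library, and Mrc1 was not called between genotypes. Cd163, a scavenger receptor named here after its values were seen, was called lower in Arntl-/- BMDMs at 0 h (log2 -0.67) and 6 h (-0.88) and higher at 48 h (1.41), where its values rested on 20 and 52 reads.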

How the data were processed

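PolyA RNA of WT and Arntl-/- BMDMs was sequenced in 8 libraries. The authors ran STAR (mm9) on paired-end reads and HOMER on RefSeq exons, with strand ignored, up to 3 tags per position and 1 transcript retained for each gene. The deposited values are FPKM per 10000000 tags. Antisense and overlapping genes therefore share reads. The table held 24016 genes after 1 broken line was left out, and 4 value columns with no sample of their own were not used. The ChIP-seq samples were not analysed here.

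FPKM times exon length came in steps of 1 read (100% of low values, tolerance 0.05 of a read), which gave the reads. Values of exactly 6 reads were frequent (298 to 476 genes per library, 39 to 110 at 5 reads), so the reads were divided by 6 for exact 95% intervals, a choice made after seeing the data. Size factors by median of ratios scaled the FPKM, and log2(level + 0.1) was compared. Genes with a mean of at least 20 scaled reads per 10000000 were analysed, and a gene was called at 1.5-fold. Similarity was Pearson's r over the 8 libraries.

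The genes, lists, markers and motifs were chosen with earlier results of these data known. Of the 8 genes chosen, 2 are not reported here, nor are 2 listed genes. Named are the 6 genes, for each the 3 most similar genes, Arntl, genes of the 7 lists other than cell markers that were called in the same direction between genotypes at 3 or more of the 4 times, and in each of those lists the gene with the largest WT change. Other genes were named after their values were seen. Alternatives were upper-quartile scaling, no scaling of the deposited values, a lowess correction for expression level (fraction 0.3), pseudocounts of 1 and 0.01, a 2-fold threshold and other sets of genes, and, added after seeing the data, size factors without WT 6 h and the lowess correction of listed genes. The steps were tested on simulated data. Computation used scipy 1.17.1, numpy 2.4.6, statsmodels 0.14.6 and pandas 2.3.3 in Python 3.11.15, with matplotlib 3.10.9 for plots.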

Additional observations from a re-analysis of the deposited data

Results flagged for a closer look

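Ass1 moved in opposite directions in the 2 genotypes from 0 to 6 h, with levels of 744 then 628 in WT and 626 then 836 in Arntl-/- BMDMs, each beyond its counting interval. The change in Arntl-/- minus the change in WT was 0.66 on the log2 scale. With 1 library a condition this difference was not tested. The WT 6 h library was the deepest, and the top 10% of genes by expression deviated there by a median log2 of -0.34. With a correction for expression level both changes were above 0, at 0.13 in WT and 0.22 in Arntl-/- BMDMs.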

How the results depend on the processing

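The number of the 6 genes called between genotypes was the same under each alternative run, except at 48 h, where a 2-fold threshold gave 0 in place of 1, the call lost being Nos2. After KLA the count in WT at 6 h went from 2 to 1 with upper-quartile scaling, a correction for expression level, a pseudocount of 1 or a 2-fold threshold, the call lost being Slc7a2. With a 2-fold threshold the counts were 1 and 3 in WT at 24 and 48 h and 1, 1 and 3 in Arntl-/- BMDMs at 6, 24 and 48 h. Of the 60 log2 values of the 6 genes, 0 reversed among those called, and 4 changed sign under some alternative, none of them called: between genotypes Asl and Slc7a2 at 0 h and Gch1 at 6 h, and Ass1 in WT at 6 h (0.13 with the correction for expression level). Ass1 moved most under that correction, to 0.84 in WT and 0.78 in Arntl-/- BMDMs at 48 h against 0 h. The call of Gch1 at 48 h in Arntl-/- BMDMs was lost with the values as deposited (0.47), and that of Ass1 at 24 h with the correction for expression level (0.53). The share of all genes called between genotypes was 0.842% to 4.53% with a 2-fold threshold, 3.08% to 7.62% among genes with at least 100 scaled reads in a WT library and 23.2% to 27.2% among all genes with a read, and the shares called after KLA were 1.57% to 14.4%, 4.58% to 30.5% and 25.4% to 43.1%. The pathway lists, which hold 55 genes, had up to 10 genes called between genotypes at a time among all genes with a read. That highest count was at 24 h, where 23.2% of all genes with a read were called. With the values as deposited the median change of all genes was -0.18 at 48 h in Arntl-/- BMDMs, in place of -0.01. The Nos2 difference ranged over the alternatives from 1.33 to 1.48 before KLA and, in order of time after it, 0.23 to 0.40, 1.22 to 1.30 and 0.94 to 0.98. The labels give no replicate numbers, and a genotype term over the 4 times with time as a block was not fitted. Depth limits Slc7a2 most, with 143 to 770 reads per library, and Nos2 in WT at 0 h, with 100.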
